A study of Mus musculus with 10 samples.

Results

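Sox9, Wt1, Gata4, Gata1, Amh, Amhr2, Fshr, Clu, Inha and Inhbb are 10 genes by which Sertoli cells are usually recognised. They were taken by name from a table of 21969 genes, and all 10 were found there. The table covers cultures of DBA/2 mouse spermatogonial stem cells, the stem cells of the male germ line, in 10 RNA-seq libraries from 5 groups of 2. Week 0 was adult testis cells that had been pulled out with antibodies to the surface protein CD9. Weeks 1, 2 and 3 were such cells after 1, 2 or 3 weeks in medium holding the growth factors human FGF2 (10 ng/ml) and rat GDNF (15 ng/ml) and 1% fetal serum, and GS cells were established spermatogonial stem cell cultures from the same strain in the same medium. No genotype or other treatment separates the groups, and the labels call all 10 libraries spermatogonial stem cells. The sources used here do not say whether a layer of feeder cells was present. They do not say either that the 2 libraries of a group had different animals or cultures as their source, so the p-values reflect the spread of these libraries alone, and it may be technical.

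Sertoli cells are the somatic cells that line the seminiferous tubules and nurse the germ cells. In the embryonic gonad the transcription factors SOX9, WT1 and GATA4 set and hold their identity, and the hormone AMH, acting through its receptor AMHR2, removes the Müllerian ducts. In the adult they respond to follicle-stimulating hormone through FSHR, secrete inhibin B, which is built from the alpha subunit INHA and the beta B subunit INHBB and lowers pituitary release of that hormone, and secrete clusterin, the product of Clu.

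Levels are the authors' normalized FPKM (fragments per kilobase of transcript, scaled to the mapped fragments of the library), which allow genes to be compared per length. Differences are on the scale of log2(FPKM + 1), which understates the change of low genes, and were tested with limma across 15671 genes, with Benjamini-Hochberg adjustment of each comparison's p-values over all of them, and a gene was called where its adjusted p was under 0.05. Depth as used in the scaling, read from the steps between low FPKM values, was between 10.35 and 21.07 M reads (1e6 reads) a library. The way of normalization is unknown, so it may differ from the number of mapped reads. All 10 genes reached 1 FPKM in at least 2 libraries and were tested, but Gata1, Amh and Fshr did so only through the pair at week 0. For those 3 genes a fall after week 0 was thus built into the filter, and their values against week 0 are a description. In whole cultures, fewer Sertoli cells and less of a transcript in each Sertoli cell cannot be told apart.

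The labelled cell type was checked first. The 10 spermatogonial genes that include Zbtb16, Gfra1 and Ddx4 summed to between 384 and 398 FPKM at week 0, 673 to 687 at week 1 and 1027 to 1153 in the 6 later libraries. The genes did not all share this rise. From week 0 to week 1, 8 were called higher, beside 36.3% of all genes tested. Id4 was not called, and Ddx4 was called lower (log2 difference -1.46), beside 44.0% of all genes. The mean of Ddx4 fell from 199 to 71.3 FPKM in that step, and GS cells, at 125, were also called lower than week 0. Dazl was the largest part of the later sums, its mean rising from 112 FPKM before culture to 469 in the GS pair. Week 0 held much else. The 6 spermatid genes summed to 23046 and 24803 FPKM there, against 157 to 169 at week 1, and the 8 Leydig cell genes went from between 1569 and 1816 to between 74.8 and 82.6 FPKM. Of these 8, 7 were called lower at week 1, beside 44.0% of all genes, but 6 of the 8 passed the filter only through week 0. Star was not called, at 41.0 and 40.6 FPKM at week 0 and 55.1 and 62.7 at week 1. It made up most of the Leydig cell sum at week 1. The 10 Sertoli cell genes themselves summed to 715 and 702 FPKM before culture, 288 and 287 after 1 week, 21.4 and 24.4 after 2 weeks, 17.3 and 19.0 after 3 weeks, and 27.2 and 26.5 in GS cells. Clu alone made up 51.5% and 53.1% of the sum at week 0 and 74.3% and 75.4% at week 1.

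**Figure D1:**
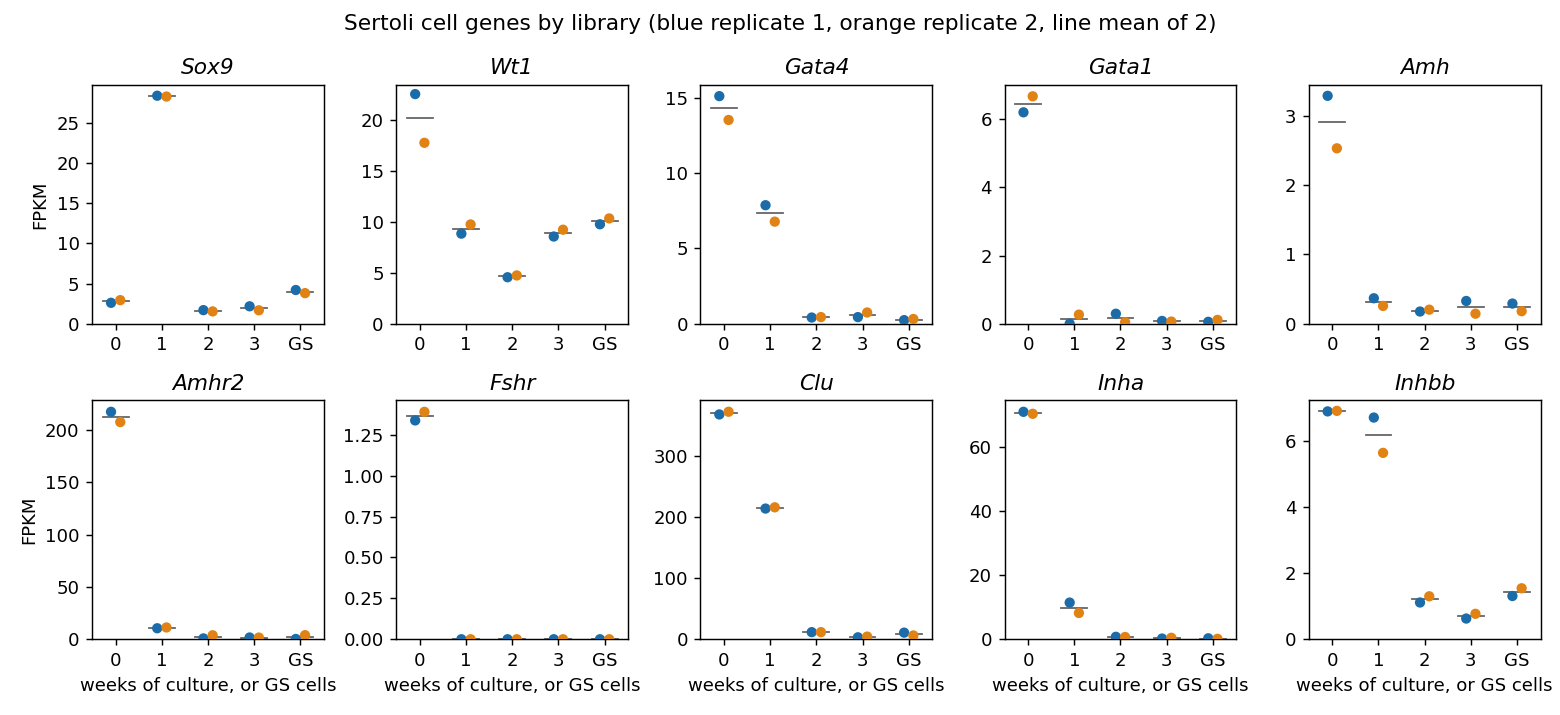
FPKM (vertical axis, from 0, its own scale in each panel) of the 10 Sertoli cell genes in the 5 groups (horizontal axis), with a point for each library and a line at the mean of 2 libraries. Sox9 stands near 28 FPKM at week 1 and below 5 elsewhere, Wt1 stays above 4 FPKM throughout, and most of the others are close to 0 from week 2 on.

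The 10 genes followed different courses. Sox9 rose at week 1 and fell back at week 2. Wt1 kept more of its level than the other genes that were lower in GS cells, with a mean there of 49.9% of that at week 0. Gata4, Gata1, Amhr2, Fshr, Clu and Inha lay below 5% of their week 0 mean in all 3 later groups, weeks 2 and 3 and GS cells. Amh and Inhbb lay between these, at 8.10% and 20.6% of week 0 in GS cells. The number of genes with a mean of at least 1 FPKM was 10 at week 0 and 7, 5 and 4 in the weeks that followed, and it was 5 in GS cells. An F test over the 5 groups called all 10 genes, but it also called 93.8% of all genes tested, so that count says little about these genes.

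The stretch before the start is shown for 3 of the 10 genes. Their courses differed, as Amhr2 and Fshr were called lower at week 1 and Inhbb was not. RefSeq windows on the build GRCm38.p6 were matched for 5 of the 10 genes by symbol: Gata1, Amhr2, Fshr, Inha and Inhbb. The lines give the 250 bases before the start, 5′ to 3′ on the gene's strand, with capitals marking matches on either strand to 3 of the 6 motifs that were searched. The window of Amhr2 is chr15:102445117-102445366 on the plus strand, that of Inhbb is chr1:119422249-119422498 on the minus strand, and that of Fshr is chr17:89200676-89200925 on the minus strand. None of these 3 windows overlaps an annotated exon in GENCODE M21. The RefSeq windows of Inha and Gata1 lie inside the GENCODE span of the gene itself, and that of Inha overlaps an annotated exon of Inha.
Amhr2: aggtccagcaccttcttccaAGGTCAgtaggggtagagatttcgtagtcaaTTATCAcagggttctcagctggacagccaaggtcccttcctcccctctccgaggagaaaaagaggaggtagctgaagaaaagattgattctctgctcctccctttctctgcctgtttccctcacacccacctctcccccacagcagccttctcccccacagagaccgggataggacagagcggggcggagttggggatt
Inhbb: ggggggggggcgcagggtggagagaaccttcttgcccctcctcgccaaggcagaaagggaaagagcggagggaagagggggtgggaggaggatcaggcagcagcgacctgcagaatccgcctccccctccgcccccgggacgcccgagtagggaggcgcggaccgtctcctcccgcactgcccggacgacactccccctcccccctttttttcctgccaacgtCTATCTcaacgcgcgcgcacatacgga
Fshr: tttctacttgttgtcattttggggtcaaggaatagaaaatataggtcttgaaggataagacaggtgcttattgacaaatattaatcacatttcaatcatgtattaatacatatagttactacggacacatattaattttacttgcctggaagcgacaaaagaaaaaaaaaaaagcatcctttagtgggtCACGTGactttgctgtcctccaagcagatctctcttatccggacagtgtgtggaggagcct

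The motifs in capitals were a GATA factor motif (AGATAA or AGATAG or TGATAA or TGATAG), the motif of NR5A1, the orphan nuclear receptor SF-1 (AGGTCA), and the E-box that upstream stimulatory factors bind (CACGTG). The GATA motif stood 199 bases before the start of Amhr2 and 27 bases before that of Inhbb, both times on the reverse strand. AGGTCA stood 230 bases before the start of Amhr2 and 69 bases before the RefSeq start of Inha, within the GENCODE gene. CACGTG stood 61 bases before the start of Fshr. Of 32851 RefSeq windows of the same length, 26.5% held a GATA motif, 14.0% AGGTCA and 6.0% CACGTG on either strand, and the motifs share no base in these windows. TGACG, a core of the cAMP response element, and ACAAT, a core of SOX motifs, were in none of the 5 windows and in 17.8% and 27.7% of all. GNGGGNGNG, a motif of the EGR and WT1 zinc fingers that is not capitalised, matched 9 times in the window of Inhbb, 4 times in that of Amhr2 and 3 times in that of Gata1, with matches overlapping each other, and was in 40.1% of all windows. A match is a string of letters, not a bound site.

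Among the transcription factors, Sox9 (chr11:112782224-112787760 on GRCm38, plus strand, 1 annotated transcript) directs Sertoli cell fate. Its level was 2.60 and 2.94 FPKM before culture, 28.4 and 28.3 after 1 week, 1.69 and 1.53 after 2 weeks, 2.17 and 1.67 after 3 weeks, and 4.20 and 3.81 in GS cells. Both week 1 libraries lay far above all others, and the pairs at weeks 2 and 3 overlapped, while every other neighbouring pair in the order week 1, GS, week 0, week 3 was separate. The mean at week 1 was 10.2 times that at week 0 and 17.6 times that at week 2. The log2 difference was 2.96 (SE 0.131, limma adjusted p = 1.25e-07) from week 0 to week 1 and -3.49 (SE 0.131, limma adjusted p = 1.07e-06) from week 1 to week 2. Sox9 was the only one of the 10 genes called higher at week 1, where 36.3% of all genes tested were called higher. GS cells were above week 3 by 0.78 (SE 0.131, limma adjusted p = 0.00536) and above week 0 by 0.41 (SE 0.131, limma adjusted p = 0.019). The last difference was not called without replicate 1 of week 0 (0.34, limma adjusted p = 0.110) or without replicate 1 of GS cells (0.35, limma adjusted p = 0.0901), and over all 17 alternatives its adjusted p ran from 8.12e-06 to 0.110. Its size depends on the scaling, at 1.46 after quantile normalization and 0.77 with a common FPKM sum. Sox9 is also active in other cell types, such as cartilage and duct epithelium. At week 1 all 10 fibroblast and matrix genes were called higher, their sum moving from between 484 and 565 to between 3434 and 3526 FPKM and back to between 440 and 472 at week 2. The 9 mesothelial and duct genes summed to 6.60 and 7.58 FPKM at week 0 and to between 34.4 and 41.3 at week 1, with none of their defining genes Msln, Upk3b and Pax8 at 0 in both week 1 libraries. Krt19, at 14.9 and 10.0 FPKM, and Krt8, at 11.1 and 8.72, made up most of that week 1 sum. Others went down: Lrrn4 from 1.04 and 0.653 to 0.0511 and 0.161 FPKM and Pax2 from 0.801 and 0.765 to 0.0828 and 0.0868. Cdh16 was at 0 in both week 1 libraries. The part of such cells in the Sox9 values was not tested.

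Wt1 (chr2:105126529-105173616, plus strand, 9 annotated transcripts) encodes a zinc finger protein needed to keep Sertoli cells from losing their identity. It stood at 22.5 and 17.7 FPKM before culture, 8.83 and 9.74 after 1 week, 4.56 and 4.73 after 2 weeks, 8.55 and 9.22 after 3 weeks, and 9.75 and 10.3 in GS cells. Week 0 was highest and week 2 lowest, each apart from its neighbour, and weeks 1 and 3 overlapped. It fell at week 1 (log2 difference -1.03, SE 0.134, limma adjusted p = 0.000122) and again at week 2 (log2 difference -0.86, SE 0.134, limma adjusted p = 0.000862). Wt1 then rose by 0.81 from week 2 to week 3 (SE 0.134, limma adjusted p = 0.00513). It was the only one of the 10 genes called higher in that step, in which 10.6% of all genes tested were called higher. GS cells differed from week 3 by 0.16 (95% interval -0.15 to 0.47), which was not called, and from week 0 by -0.93 (SE 0.134, limma adjusted p = 0.000231), or by -0.37 after quantile normalization and -0.47 with a common FPKM sum, both called. An antisense gene, Wt1os, lies 19 bases from Wt1 on the other strand, and it has no entry in the table. The sources used here do not give how reads were assigned to strands. The part of cells other than Sertoli cells in the Wt1 values was not tested.

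Gata4 (chr14:63198922-63271692, minus strand, 6 annotated transcripts) encodes a factor that acts with WT1 and NR5A1 on promoters such as that of Amh. Its values were 15.1 and 13.5 FPKM before culture, 7.86 and 6.77 after 1 week, 0.409 and 0.438 after 2 weeks, 0.437 and 0.744 after 3 weeks, and 0.237 and 0.313 in GS cells. Weeks 0 and 1 were apart from each other and from the 6 later libraries, and weeks 2 and 3 overlapped. The larger step came between weeks 1 and 2, at a log2 difference of -2.54 (SE 0.137, limma adjusted p = 3.92e-06), against -0.88 (SE 0.137, limma adjusted p = 0.000376) between weeks 0 and 1. With a pseudocount of 0.1 the former was -3.82, and after quantile normalization the latter was -0.52, both called. The Leydig cell sum went down over the same weeks, and the part of Leydig cells in the Gata4 values was not tested.

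Gata1 (chrX:7959260-7978071, minus strand, 3 annotated transcripts) is switched on in Sertoli cells of the mouse after birth and is better known as the master factor of red blood cells and megakaryocytes. It was 6.20 and 6.67 FPKM at week 0, and the 8 later libraries lay between 0 and 0.293 and overlapped across groups. The log2 difference at week 1 was -2.72 (SE 0.142, limma adjusted p = 3.40e-07), or -5.09 with a pseudocount of 0.1, and no later step was called. Of 12 erythroid and megakaryocyte genes, 5 were called lower and 1 higher at week 1 among the 7 tested, beside 44.0% lower and 36.3% higher over all genes, and 4 of the 5 had been tested only through their week 0 values. Their sum was 41.6 to 44.2 FPKM at week 0 and 30.2 to 38.7 at week 1. Pf4, a platelet chemokine and the gene called higher, made up most of the latter, at 33.2 and 25.7 FPKM, and without it the sum of the other 11 was 32.6 and 31.2 FPKM at week 0 and 5.54 and 4.44 at week 1. Klf1, a factor that defines erythroid cells, was at 0.509 and 0.298 FPKM at week 0. Alas2, which makes haem in red cells, was at 7.78 and 8.22 FPKM, and Hba-a1, an alpha globin with a near-identical copy, at 6.27 and 5.40. Of the mast cell and eosinophil genes, others that can accompany Gata1, all 8 were below 1 FPKM in both week 0 libraries. The part of red cells in the Gata1 values was not tested.

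The hormone gene Amh (chr10:80805243-80807648, plus strand) is high in fetal Sertoli cells and low in adult ones. It was at 3.29 and 2.53 FPKM at week 0, then 0.367 and 0.256, 0.176 and 0.202, 0.328 and 0.144, and 0.291 and 0.181 in weeks 1, 2, 3 and GS cells. These are few reads: 50 and 47 at week 0 and between 4 and 9 in each later library. The 95% Poisson intervals, which cover counting error only, were 2.44 to 4.33 and 1.86 to 3.37 FPKM at week 0 and overlapped between all later libraries. The log2 difference at week 1 was -1.57 (SE 0.125, limma adjusted p = 5.06e-06), and no later step was called. That difference was -2.87 with a pseudocount of 0.1 and -0.72 after quantile normalization, called in both. The gene Sf3a2 ends 319 bases before Amh on the same strand and stood at 46.6 to 87.6 FPKM in all libraries.

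Amhr2 (chr15:102445367-102454633, plus strand, 5 annotated transcripts), the type II receptor for AMH, is also active in Leydig and granulosa cells. It was the second highest of the 10 genes at week 0, with 218 and 208 FPKM. It was at 10.5 and 11.3 FPKM after 1 week, 0.787 and 3.80 after 2 weeks, 1.68 and 1.61 after 3 weeks, and 0.273 and 3.90 in GS cells. Weeks 0 and 1 were apart from all else, and the 3 later groups overlapped. The log2 difference was -4.17 (SE 0.612, limma adjusted p = 0.000264) at week 1. The next, -2.02 at week 2 (SE 0.612, limma adjusted p = 0.0225), was not called without replicate 1 or replicate 2 of week 1 (-2.07 and -1.97) or without replicate 1 of week 2 (-1.31), nor with a pseudocount of 0.1 or a fit of weeks 1 and 2 alone, with adjusted p between 0.0646 and 0.144 in these. The replicates of week 2 and of GS cells differed by more on the log2(FPKM + 1) scale than in any other of the 10 genes, and the shortest annotated transcript of Amhr2 has 209 nucleotides, close to the length of a sequenced fragment. The part of this transcript in the spread was not tested. Insl3, the leading Leydig cell gene, was at 1219 and 1075 FPKM at week 0 and 0.580 and 0.595 at week 1. Star, another Leydig cell gene, did not go down, with 41.0 and 40.6 FPKM at week 0 and 55.1 and 62.7 at week 1. The part of Leydig cells in the Amhr2 values was not tested. Of the 6 granulosa genes, 3 were tested, with 1 called higher and 0 lower at week 1 (2 not called, both with an unadjusted p above 0.05). Over all genes 36.3% were called higher and 44.0% lower, so counts among 3 genes say little. The sum of the 6 was 7.37 to 12.1 FPKM at week 0 and 3.57 to 4.09 in GS cells. The defining Foxl2 was below 0.12 FPKM in every library. The other defining gene, Cyp19a1 (aromatase), was at 8.37 and 3.77 FPKM before culture, 0.0827 and 6.11 after 1 week and 0.109 and 0.0978 in GS cells. The part of such cells in the Amhr2 values was not tested.

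Fshr (chr17:88984952-89200675, minus strand) encodes the receptor for follicle-stimulating hormone, which in the male is nearly exclusive to Sertoli cells. It was at 1.34 and 1.39 FPKM at week 0, from 30 and 38 reads, and was listed at 0 in the other 8 libraries. A count of 0 allows up to about 3 reads as a one-sided 95% limit, which correspond to 0.0659 to 0.103 FPKM in those libraries. The mean of week 0 was 13.2 times the highest of these per-library limits, and the lower week 0 library 12.95 times. The two-sided 95% Poisson limits of the libraries at 0 were higher, from 0.081 to 0.127 FPKM, and would make both ratios smaller. Week 0 carries counting error too, with 95% Poisson intervals of 0.905 to 1.92 and 0.985 to 1.91 FPKM. The fitted log2 difference of -1.24 (SE 0.0679, limma adjusted p = 4.62e-07) is set by the pseudocount, being -3.87 with one of 0.1 and -0.45 after quantile normalization. Fshr itself varied only within the week 0 pair, so its SE draws on the spread of other genes in the limma fit.

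Inha (chr1:75507077-75510366, plus strand), the inhibin alpha subunit, is also made by Leydig cells, whose marker sum went down in the same libraries and whose part in Inha was not tested. It was at 70.9 and 70.3 FPKM before culture, 11.4 and 8.18 after 1 week, 0.760 and 0.700 after 2 weeks, 0.216 and 0.457 after 3 weeks, and 0.298 and 0.125 in GS cells. Each group was apart from the next down to week 3, and week 3 and GS cells overlapped at 3 to 11 reads a library. The steps measured -2.75 (SE 0.173, limma adjusted p = 1.15e-06) at week 1 and -2.63 (SE 0.173, limma adjusted p = 9.70e-06) at week 2. The mean in GS cells was 0.300% of that at week 0. This was the lowest share of the 9 genes that were above 0 in GS cells.

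Inhbb (chr1:119415465-119422248, minus strand), the beta B subunit, had another course than Inha. It was at 6.91 and 6.93 FPKM before culture, 6.72 and 5.65 after 1 week, 1.11 and 1.30 after 2 weeks, 0.628 and 0.771 after 3 weeks, and 1.31 and 1.55 in GS cells. In the order week 0, week 1, GS, week 2, week 3 no neighbouring groups overlapped, but the step at week 1 was small, -0.14 (95% interval -0.44 to 0.15, limma adjusted p = 0.322), and not called. Its sign depends on the scaling of the libraries: after quantile normalization it was 0.46 and called higher (limma adjusted p = 0.0106), and with all libraries scaled to a common FPKM sum it was 0.07 and not called. From week 1 to week 2 it fell by 1.70 on the log2 scale (SE 0.127, limma adjusted p = 1.78e-05), and from week 3 to GS cells it rose by 0.51 (SE 0.127, limma adjusted p = 0.0236). That rise was not called when any of the 4 libraries of week 3 or GS cells was left out, with values of 0.44 to 0.58, and was 0.94 with a pseudocount of 0.1.

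Clu (chr14:65968483-65981547, plus strand, 9 annotated transcripts) encodes clusterin, a chaperone that is a main secreted glycoprotein of Sertoli cells and is also made by many other cells. It was the highest of the 10 genes in weeks 0 to 2, at 368 and 373 FPKM before culture, 214 and 216 after 1 week, 11.6 and 11.6 after 2 weeks, 3.16 and 4.32 after 3 weeks, and 10.8 and 6.17 in GS cells. All 5 groups were separate in the order week 0, week 1, week 2, GS, week 3, and the pair of GS cells was the most spread. Week 1 kept 58.1% of the week 0 level, a log2 difference of -0.78 (SE 0.212, limma adjusted p = 0.00867), which under quantile normalization was -0.37 and not called (limma adjusted p = 0.0861). The main fall came at week 2, by -4.10 (SE 0.212, limma adjusted p = 3.29e-06). Week 3 was lower again by -1.42 (SE 0.212, limma adjusted p = 0.00324), and GS cells were above week 3 by 0.97 (SE 0.212, limma adjusted p = 0.0155), a difference not called without replicate 1 of week 3 (0.79, limma adjusted p = 0.0855, and between 0.00432 and 0.158 over 17 alternatives) and at 0.61 without replicate 1 of GS cells, still called.

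**Figure D2:**
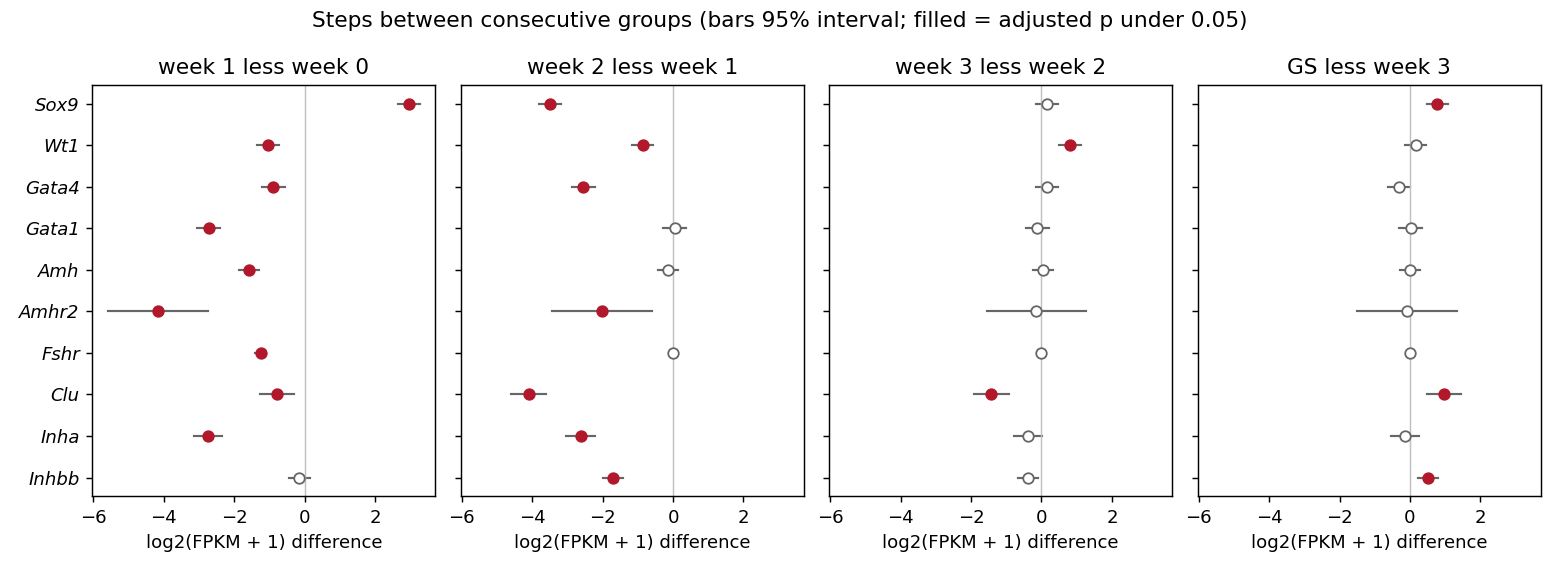
Difference in log2(FPKM + 1) (horizontal axis) between consecutive groups for each of the 10 genes, with 95% intervals from limma and filled points where the adjusted p was under 0.05. Sox9 is the only filled point to the right in the first panel, 7 points are filled to the left in the second, and few are filled in the last 2 panels; where Fshr was listed at 0 in both groups it has a point at 0 and no interval.

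Counted over the genes, 8 of the 10 were called lower and 1 higher at week 1, where 44.0% of all genes tested were called lower. From week 1 to week 2 the count was 7 lower and 0 higher, beside 27.4% and 28.2% of all genes tested. In that step Gata1 was the 1 gene with a limma difference above 0 (0.05, unadjusted p = 0.755), so 0 were higher at an unadjusted p under 0.05 as well. From week 2 to week 3, Clu was the 1 gene called lower, beside 10.7% of all genes. Between week 3 and GS cells 3 were called higher, Sox9, Clu and Inhbb, beside 11.7% of all genes, and 0 lower, beside 10.8%, with 0 lower also at an unadjusted p under 0.05. A fit of week 3 and GS cells alone called 0 of the 3 higher, with adjusted p of 0.0666 for Sox9, 0.158 for Clu and 0.0622 for Inhbb. Between week 0 and GS cells 9 were called lower, beside 45.9% of all genes, and Sox9 alone higher, beside 34.7%. The median log2 difference of the 10 genes was -1.14 at week 1 (-1.03 over the 9 without Fshr) against -0.14 over all genes tested, and -2.24 between week 0 and GS cells (-2.78 without Fshr) against -0.21. As 3 of the 10 genes could enter only by being high at week 0, these counts and medians describe the genes and do not set them apart from others.

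The genes of the inhibin alpha subunit and the 2 beta subunits were set side by side. INHA joined to a beta subunit forms an inhibin, and 2 beta subunits without INHA form an activin, which acts against inhibin. Inhba, the gene of the beta A subunit, was at 0.436 and 0.774 FPKM before culture, 249 and 261 after 1 week, 15.3 and 13.4 after 2 weeks, 5.43 and 11.9 after 3 weeks, and 37.5 and 35.7 in GS cells. Its mean at week 1 was 421 times that at week 0, a log2 difference of 7.33 (SE 0.279, limma adjusted p = 4.98e-08). Of the FPKM of the 3 subunit genes together, Inha made up 90.6% and 90.1% before culture, 4.28% and 2.98% after 1 week and 0.762% and 0.335% in GS cells. Inhba made up 0.558% and 0.993% at week 0 and at least 86.6% in each of the 8 later libraries. Fst, which encodes follistatin, a secreted binder of activin, was at 2.89 and 3.07 FPKM at week 0 and 48.7 and 41.0 at week 1, and it stayed between 12.1 and 24.6 in the 6 later libraries. Inhba and Fst are also made by fibroblasts, whose marker sum peaked in the same week 1 libraries as Inhba, and their part in these values was not tested.

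**Figure D3:**
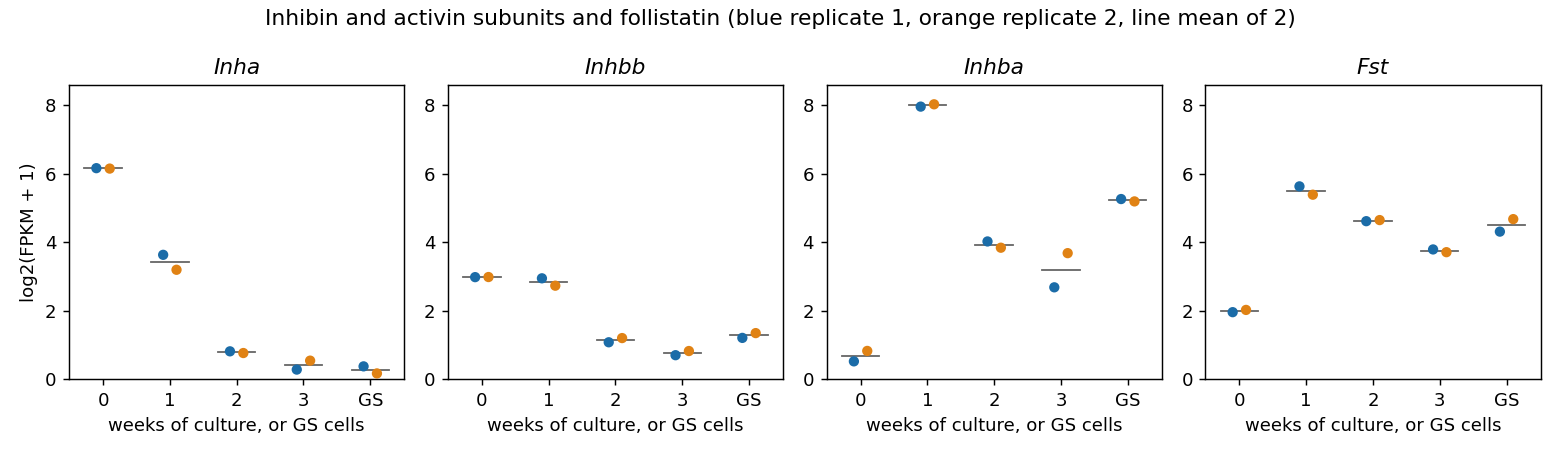
Level, as log2(FPKM + 1) on a common vertical axis from 0, of the inhibin alpha subunit Inha, the beta subunits Inhbb and Inhba, and the activin binder Fst in the 5 groups, with a point for each library and a line at the mean of 2. Inha runs down from 70.9 and 70.3 FPKM at week 0 while Inhba goes from below 1 FPKM to 249 and 261 at week 1.

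A list of 20 genes of AMH, activin and inhibin signalling, with ligands such as Inhba, binders such as Fst, receptors and SMAD transducers, had 16 tested. At week 1, 10 were called higher and 3 lower, with a median log2 difference of 1.02, and between week 0 and GS cells 11 were called higher and 3 lower, with a median of 0.76. Among the whole set of genes tested, 36.3% were called higher and 44.0% lower at week 1 and 34.7% and 45.9% between week 0 and GS cells, with medians of -0.14 and -0.21. Acvr1, a type I receptor that can pair with AMHR2, was at 3.55 and 3.60 FPKM before culture, 13.2 and 17.0 after 1 week and 11.0 and 10.4 in GS cells. Acvr2a, the type II receptor that binds activin, was at 13.1 and 10.1 FPKM at week 0 and 8.54 and 8.29 in GS cells. These receptor genes of GS cells stood above Amhr2, whose mean there was 2.09 FPKM. Downstream of FSHR, 16 genes of cAMP signalling were all tested, with 8 called higher and 5 lower at week 1 and 7 higher and 9 lower between week 0 and GS cells. Over all genes the shares were 36.3% and 44.0% at week 1 and 34.7% and 45.9% for GS cells, so these counts say little about the list. Gnas, the stimulatory G protein subunit that FSHR uses in common with many receptors, was at 144 and 176 FPKM before culture, 618 and 599 after 1 week and 97.9 and 101 in GS cells.

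Of 16 regulators of testis fate beside the 10 genes, 15 were tested, and 4 were called higher and 8 lower at week 1 (median -0.75), beside 36.3% and 44.0% of all genes. Of the 8, 4 were tested only through week 0. Nr5a1, the partner of SOX9 and GATA4 in the regulation of Amh, was at 15.6 and 14.2 FPKM at week 0, 3.29 and 3.29 at week 1 and 0 in both GS libraries. The Leydig cell sum went down in the same libraries, and the part of Leydig cells in the Nr5a1 values was not tested. Sox8, a relative that can stand in for Sox9, did not share its peak: it was at 4.86 and 4.86 FPKM before culture, 1.25 and 1.70 after 1 week and 4.27 and 5.27 in GS cells, a log2 difference of -1.25 at week 1 (SE 0.183, limma adjusted p = 0.000260). Dhh, the hedgehog ligand that Sertoli cells send to Leydig and myoid cells, went from 3.78 and 3.62 to 0.652 and 0.524 FPKM in the same step. Lhx9 and Zfpm2, among the 4 called higher, did have their high point at week 1. Lhx9 was at 1.39 and 1.06 FPKM at week 0, 5.59 and 5.67 at week 1 and 0.220 and 0.347 at week 2. Zfpm2 was at 4.61 and 4.20, 7.28 and 8.01, and 0.243 and 0.202 FPKM in the same groups. Dmrt1, which acts in Sertoli cells and also in spermatogonia, went from 50.9 and 59.3 FPKM at week 0 to 207 and 199 in GS cells, 3.68 times the week 0 mean. Sry, the switch upstream of Sox9 in the embryo, was listed at 0 in all 10 libraries and is named here after its values were seen.

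A further 18 genes of Sertoli cells, all tested, were called lower in 13 cases and higher in 5 at week 1, and lower in 16 and higher in 2 between week 0 and GS cells. All genes tested were called lower in 44.0% and 45.9% of cases and higher in 36.3% and 34.7%, and Cst9, Rhox8 and Mro passed the filter only through week 0. The medians were -2.66 at week 1 (-2.56 without Cst9, listed at 0 there) and -3.48 for GS cells (-3.03 without Cst9 and Defb19). Aard went from 64.6 and 71.7 FPKM to 5.64 and 3.28 after 1 week and 0.331 and 0.417 in GS cells. Cldn11, a tight junction protein of the blood-testis barrier, went from 29.2 and 30.9 to 9.37 and 8.24 and then to 0.199 and 0.0318 FPKM. Rhox5 went from 19.6 and 19.3 to 1.53 and 1.68 and then to 0.659 and 0.861 FPKM, and Cst12 from 125 and 138 to 6.08 and 5.64 and then to 0 and 0.462 FPKM. Gdnf, the factor that keeps spermatogonial stem cells dividing and was also added to the medium as protein, had its high point at week 1 as Sox9 did. It was at 0.834 and 0.979 FPKM before culture, 14.3 and 15.0 after 1 week, 0.353 and 0.385 after 2 weeks and 0.464 and 0.367 in GS cells. Trf, transferrin, went from 9.59 and 15.0 FPKM at week 0 to 77.3 and 97.5 after 1 week and 187 and 153 in GS cells. Both genes are active in other cells too, whose part was not tested.

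**Figure D4:**
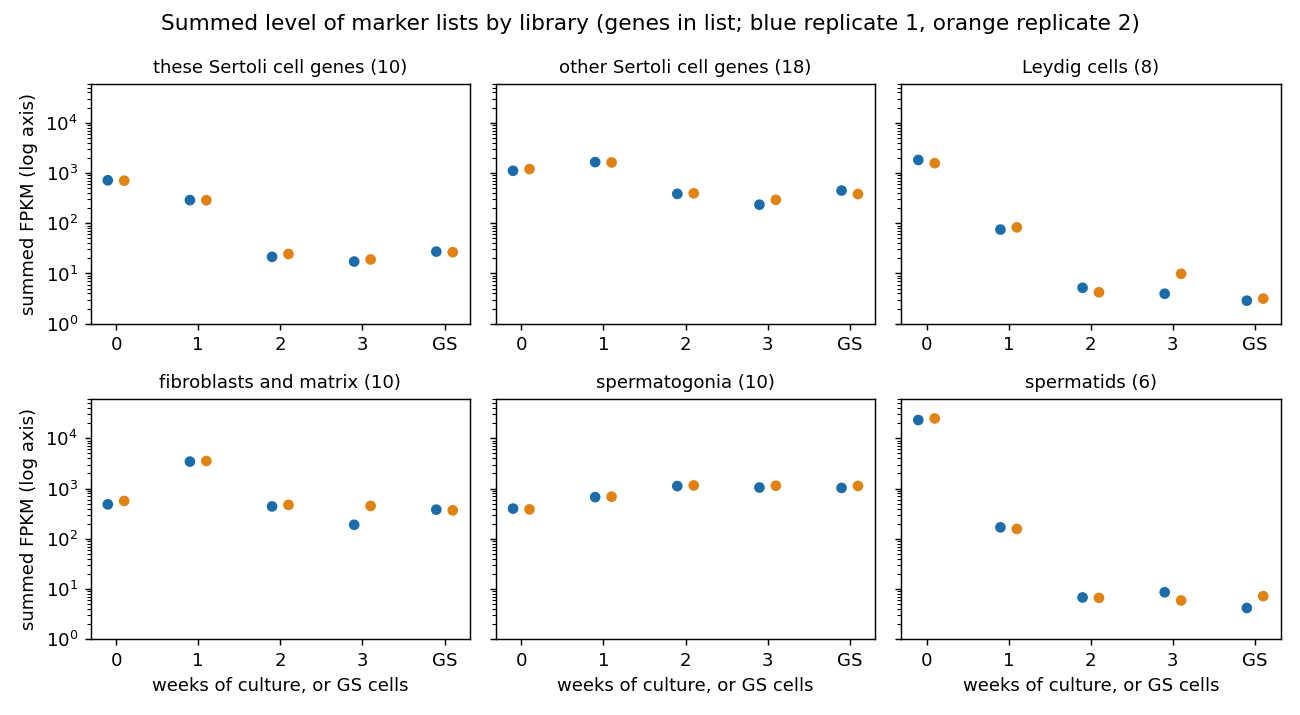
Summed FPKM of 6 marker lists (vertical log axis, number of genes in brackets) in the 5 groups, with a point for each library. The sum of the 10 Sertoli cell genes goes from at least 702 FPKM at week 0 to below 30 from week 2 on, the Leydig and spermatid sums go down as well, and the fibroblast sum is highest at week 1, at 3434 to 3526 FPKM.

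Genes with the most similar course were sought by the root mean square difference in log2(FPKM + 1) over the 10 libraries, after centring each gene on its own mean, and the 3 nearest were kept for each. Of these 30 genes, 10 were also among the nearest 3 with a pseudocount of 0.1. The nearest to Inha was Aldh1a1, at 0.236, which went from 123 and 120 FPKM at week 0 to 20.8 and 19.0 after 1 week and 0.845 and 0.749 in GS cells. The nearest to Gata1 was Alas2 (0.0979), to Gata4 Prss35 (0.151), to Amhr2 Lims2 (0.428), and to Clu Sqor (0.403), all kept with the other pseudocount. Gata1 and Alas2 both passed the filter only through week 0, so a shared high point there was built in. The 3 genes nearest to Sox9, which were Lce3a, Sdc2 and Pi15, at 0.275 to 0.289, were not kept. Closeness also depends on how common a course is and on its size, since courses were centred but not scaled. Genes whose changes are small on this scale thus have more others near them. In all, 845 tested genes lay within 0.25 of Fshr, 631 within 0.25 of Amh, and 247 within 0.25 of Gata1. Within 0.25 of Inha there was 1, and there were 0 within 0.25 of Sox9, Amhr2 or Clu.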

How the data were processed

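Polyadenylated RNA was sequenced from stranded libraries, per the labels' protocols. The authors deposited 1 matrix of normalized FPKM values for 10 libraries. The tools Cufflinks 2.2.1, Cuffdiff, HISAT2 2.1.0, cutadapt 1.16, Bowtie2 2.3.4.1 and bcl2fastq 2.17.1.14, and the build mm10, are listed in the submitters' processing notes. The step that each tool served, the annotation and the way of normalization are unknown, since the sources used here do not give them.

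Gene positions and transcripts came from GENCODE M21 (GRCm38, the assembly named mm10), in which 21951 of 21969 identifiers were found. The 15671 genes that reached 1 FPKM in 2 or more libraries were fitted together over the 5 groups as log2(FPKM + 1) with limma 3.58.1 in R 4.3.3 (empirical Bayes with an intensity trend, two-sided, 5 residual degrees of freedom). Consecutive comparisons share a group. Read numbers were recovered for 5 of the 10 genes, those with 1 annotated transcript. Their FPKM times transcript length, less a fragment of 200 nucleotides, steps by a fixed amount per read, and between 95.55% and 99.18% of low values a library were whole within 0.15. All 28 values of these genes under 60 reads were whole. No count test was run, since most genes have several transcripts. The fit was tested on simulated data.

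The 10 genes and all lists were chosen with earlier results of these data known. Named genes were drawn from the 10, each list's defining genes, the 2 called genes with the largest rise and fall per list and comparison, and the 3 nearest in course. Not all genes that qualified are named, Prkar2b, Ptgds and Crem among those left out. A few further genes of a list were named where they ran against its sum. Neighbouring genes on the chromosome were added where a result turned on them. Fold changes set beside levels are ratios of FPKM means. Alternatives covered the pseudocount, filter, scaling, variance trend, replicate numbers as a block, each library left out, and fits of the 2 groups alone.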

Additional observations from a re-analysis of the deposited data

How the results depend on the processing

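Over 17 alternatives to the 50 differences of the 10 genes, 790 values kept their direction and their side of the threshold, 16 were no longer called, 1 became called in the same direction and 13 changed sign, 1 of which (Inhbb at week 1 after quantile normalization) was also called. Quantile normalization called 2 genes higher at week 1 in place of 1, since Inhbb was at 0.46, and moved Amh from week 1 to week 2 to 0.019. A common FPKM sum gave Inhbb 0.073 at week 1 and Amh -0.0087 between week 3 and GS cells. Without the variance trend 2 genes were called lower at week 3, Inhbb being added, and a fit of week 3 and GS cells alone called 0 higher in place of 3. Leaving out single libraries gave 5 to 8 genes lower at week 1, where the low counts come from leaving out a week 0 library, so that Gata1, Amh and Fshr fail the filter and 7 genes are tested. It gave 0 to 1 higher between week 0 and GS cells, 0 without replicate 1 of either group, and 1 to 3 higher between week 3 and GS cells, 1 without replicate 1 of week 3. Differences whose sign changed when 1 library was left out were all of values not called. Gata1 ranged from -0.125 to 0.216 at week 2, from -0.271 to 0.038 at week 3 and from -0.021 to 0.053 in GS cells, each against the preceding group. Amh ranged from -0.055 to 0.159 at week 3 and from -0.105 to 0.110 in GS cells, and Amhr2 from -0.861 to 0.566 and from -1.06 to 0.889.

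Same-numbered libraries did not deviate together (correlations of -0.05 to 0.05), so the numbers were not taken as pairs. With a replicate block the genes called higher and lower numbered 1 and 8 (week 1), 0 and 7 (week 2), 1 and 1 (week 3), 3 and 0 (GS cells against week 3) and 1 and 9 (GS cells against week 0), as without it. Over all genes, 45.2% of calls at week 1 were higher, against 59.8% after quantile normalization, and the median difference moved from -0.14 to 0.38. At week 2 the share was 50.7%, against 61.8% and, with a common sum, 66.4%, and between week 0 and GS cells 43.0%, against 61.0% and 54.7%. All genes called higher and lower numbered 1659 and 1680 at week 3, but 755 to 1797 and 796 to 1723 with 1 library left out and 958 and 922 in a fit of those 2 groups. For GS cells against week 3 they numbered 1836 and 1690, then 917 to 1890 and 827 to 1813, and 721 and 605. Fshr and Amh rest on few reads, so differences between later groups were not detectable at this depth. With 2 libraries a group, no library could be examined as an outlier.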

Other observations

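The 2 libraries of week 3 differed in the fibroblast and matrix genes, which summed to 189.7 FPKM in replicate 1 and 450 in replicate 2, against 380 and 368 in GS cells. The 8 Leydig cell genes summed to 3.95 and 9.85 FPKM in the same order. Of the 10 Sertoli cell genes, Clu was at 3.16 and 4.32 FPKM, Gata4 at 0.437 and 0.744, Inha at 0.216 and 0.457, Sox9 at 2.17 and 1.67, and Amh at 0.328 and 0.144, so the order of the 2 libraries was not the same for all. Ctsl, a protease that Sertoli cells secrete in a cycle and fibroblasts also make, was the most abundant of the other Sertoli cell genes at week 1, at 1468 and 1430 FPKM, against 272 and 330 at week 0 and 240 and 240 at week 2. It is named here after its values were seen.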
